A study of Mus musculus with 6 samples.

Results

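The genes described here are 35 genes of protein folding and quality control in the endoplasmic reticulum (ER): chaperones and their cofactors, disulfide isomerases, sensors of the unfolded protein response, and the machinery of ER-associated degradation (ERAD). They were taken by symbol from the 55536 genes counted in each library, with earlier results of these data known. All 35 were found and had enough reads to be tested. The libraries are liver RNA of mice after a 14 h fast, 3 from wild-type mice (WT) and 3 from mice lacking CREBH (CREBH-KO), the liver transcription factor encoded by Creb3l3, and the question of the design is how liver expression under fasting differs without it. Every animal was fasted and no fed group was analysed here. The sources used here do not give the strain, age and sex of the mice or the deleted exons. The labels describe the 3 samples of a genotype as independent without tying each to its own animal, so p-values measure the spread between these samples. Reads counted in genes numbered 28106243 to 39288819 per library. The labels record a lost file of first reads for replicates 2 and 3 of CREBH-KO without saying how their counts were then obtained. In whole liver, fewer cells of a type and less RNA per cell cannot be told apart.

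Secreted and membrane proteins enter the ER through the Sec61 channel, are folded by chaperones of the HSP70, HSP90 and lectin families and by disulfide isomerases, and leave for the Golgi once folded. Proteins that fail to fold are recognised by lectins, passed through a membrane complex around the ubiquitin ligase HRD1 and its partner SEL1L, and pulled out by the ATPase p97 for destruction by the proteasome. When unfolded protein accumulates, the sensors IRE1, PERK and ATF6 raise transcription of both sets of genes, in part through the ER stress response element (ERSE), a promoter sequence read by ATF6 and XBP1 together with the factor NF-Y. The liver secretes most plasma proteins and depends on this system. CREBH is itself anchored in the ER membrane and is cut by the proteases that also release ATF6.

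Some promoters of these genes carry that element, and its copies are shown although the genes were not chosen by a search for it. ERSE was defined in the field on promoters of ER chaperones, so its presence here is background rather than a result. Promoter windows of RefSeq (GRCm38.p6, 250 bases before to 50 after a start) were matched for 31 of the 35 genes, and Derl1, Hyou1, Manf and Sec61a1 had none. ERSE, searched as CCAAT, then 9 bases, then CCACG on both strands, lay in the windows of 9 of the 31 genes (29.0%) and in 0.119% of all 32851 windows. A match is a description of the letters and was not tested as a binding site. The 10 copies follow, read 5′ to 3′ on the strand that holds the motif, with 5 bases on either side and with the outer boxes in capitals; Hsp90b1 holds a pair of them on opposite strands. The copy of Hspa5 also lies in the first exon of a longer GENCODE model of that gene.
Hspa5, chr2:34772020-34772048, plus strand: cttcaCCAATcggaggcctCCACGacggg
Syvn1, chr19:6046527-6046555, plus strand: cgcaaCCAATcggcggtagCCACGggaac
Hsp90b1, chr10:86705633-86705661, minus strand: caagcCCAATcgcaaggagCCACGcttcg
Hsp90b1, chr10:86705528-86705556, plus strand: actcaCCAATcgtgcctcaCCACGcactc
Calr, chr8:84847070-84847098, plus strand: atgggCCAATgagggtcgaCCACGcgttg
Canx, chr11:50325795-50325823, minus strand: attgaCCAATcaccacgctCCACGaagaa
Pdia6, chr12:17266486-17266514, plus strand: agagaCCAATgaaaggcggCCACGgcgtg
Dnajc3, chr14:118937822-118937850, plus strand: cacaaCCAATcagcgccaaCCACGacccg
Creld2, chr15:88819515-88819543, minus strand: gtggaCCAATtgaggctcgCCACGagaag
Derl3, chr10:75893237-75893265, minus strand: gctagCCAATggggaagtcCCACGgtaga

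Of the related motifs, ERSE-II (ATTGG, then 1 base, then CCACG) lay in the windows of Herpud1 and Dnajb11 and in 0.0365% of all windows. The copy of Herpud1, at chr8:94386372-94386392 on the plus strand, is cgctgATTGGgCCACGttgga. The core TGACGTGG of the unfolded protein response element lay in those of Ube2j1 and Vcp and in 0.676% of all windows, and the cAMP response element TGACGTCA in none of the 31 genes and in 1.79% of all windows. No gene of the 31 held more than 1 of these 4 motifs. No match in this window says nothing about the factors that bind the gene.

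Creb3l3, the targeted gene, was measured at 467, 496 and 495 CPM (counts scaled to a common library size with TMM factors) in WT 1, 2 and 3 and at 57.4, 45.0 and 46.4 CPM in CREBH-KO 1, 2 and 3, lower in every CREBH-KO library, as labelled. Its change was -3.29 ± 0.11 on the log2 scale (SE, adjusted p = 2.997e-06 by the edgeR test described next).

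Between CREBH-KO and WT, 2 of the 35 genes rose and 2 fell, and the other 31 were not called. With edgeR's quasi-likelihood test and Benjamini-Hochberg adjustment over all 15589 tested genes, the 4 that passed an adjusted p of 0.05 compare with 10.4% of all tested genes. The chaperone cofactor gene Dnajb9 and the ubiquitin ligase gene Syvn1 were higher, where 3.91% of all genes were called higher. The disulfide isomerase gene P4hb and the ERAD channel gene Derl1 were lower, where 6.46% of all genes were called lower. The share of 11.4% called among the 35 genes is near the background, so the number of calls is no result about the group. An unadjusted p under 0.05 was found for 9 of the 35 (25.7%) and for 25.2% of all tested genes. The median log2 fold change (CREBH-KO minus WT throughout, given with its SE) was 0.04 for the 35 genes and 0.02 for all tested genes, and the range was -0.70 to 0.45. The largest change, that of P4hb, was 1.62-fold. The genotypes did not overlap for 12 of the 35 genes, 8 higher and 4 lower in CREBH-KO, against 30.6% of all tested genes. Of the 7637 tested genes with a mean of 10 CPM or more, 14.8% were called, 317 higher and 817 lower. An unadjusted p under 0.05 was found for 32.4% of them, and 36.9% did not overlap, 1040 higher and 1777 lower. With CREBH-KO 1 alone, which lost no read file, against WT, of the 4 calls that of P4hb was kept (log2 fold change of -0.85) and the other 3 were lost, with log2 fold changes of 0.45 for Dnajb9, 0.37 for Syvn1 and -0.27 for Derl1 that stayed close to those with all libraries. The split of the calls depended on the scaling. It was 2 higher and 2 lower with TMM factors, 3 and 1 with upper-quartile factors and 5 and 1 with library size alone. Among the calls over all genes, the share called higher moved too, at 37.7%, 45.7% and 52.8% with these 3 scalings.

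**Figure D1:**
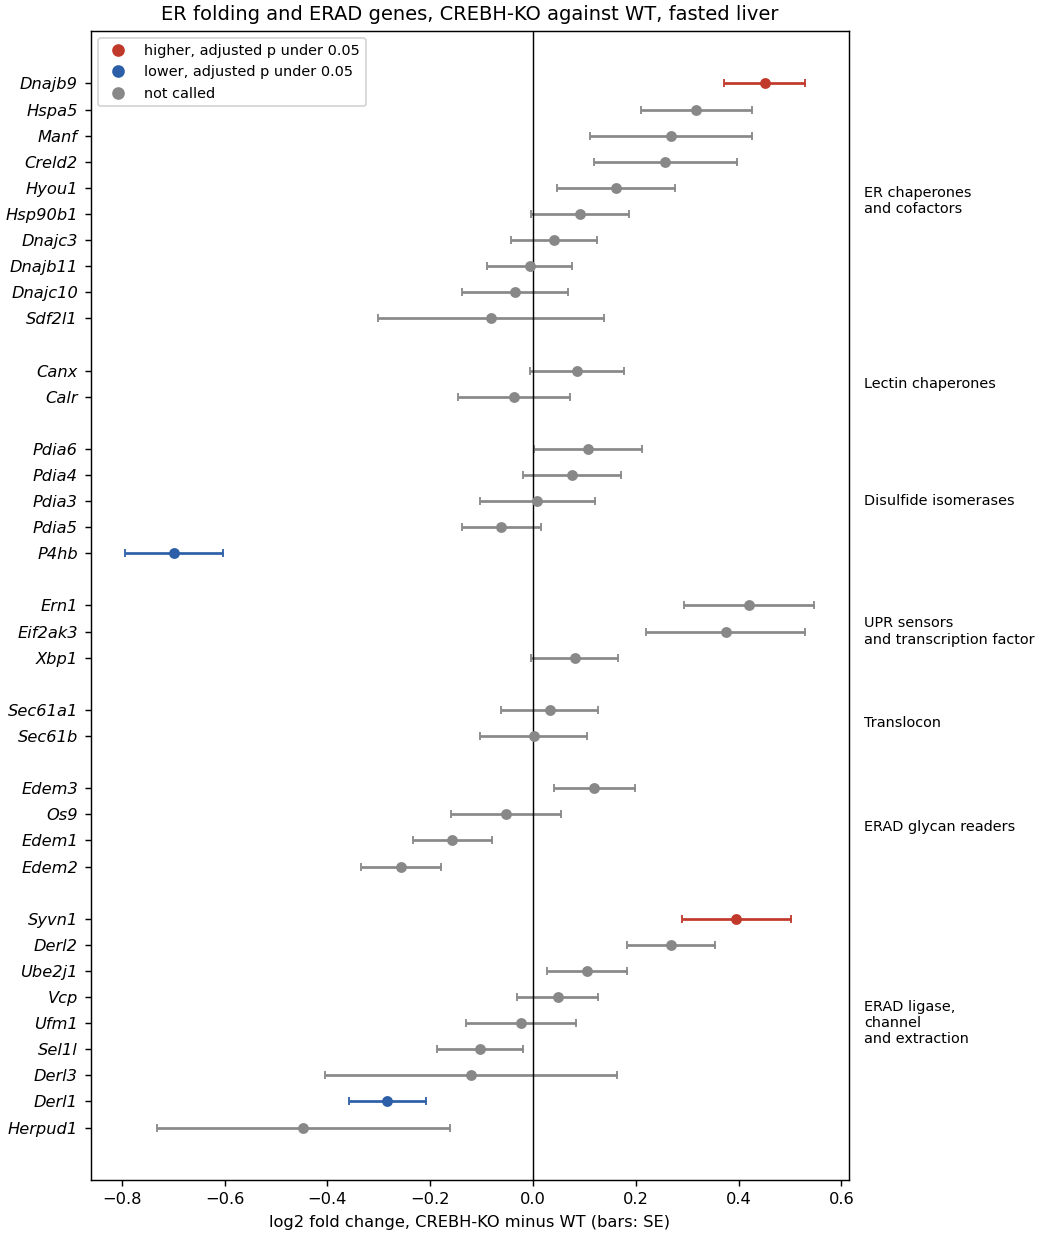
Log2 fold change (CREBH-KO minus WT, x axis) with its standard error for each of the 35 genes (y axis), grouped by role. Dnajb9 (0.45) and Syvn1 (0.40) were called higher, P4hb (-0.70) and Derl1 (-0.28) lower, and grey genes did not pass an adjusted p of 0.05.

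Among the 5 disulfide isomerases P4hb stood apart. P4hb (ENSMUSG00000025130, minus strand of chromosome 11, 120560298 to 120573253, GRCm38) encodes protein disulfide isomerase, which forms and rearranges disulfide bonds and is also a subunit of collagen prolyl 4-hydroxylase and of the microsomal triglyceride transfer protein, which loads lipid onto apolipoprotein B. Its normalised counts were 1300, 1467 and 1463 CPM in WT 1, 2 and 3 and 796, 901 and 909 CPM in CREBH-KO 1, 2 and 3. Every CREBH-KO library lay below every WT library. The mean fell from 1410 ± 95.3 to 869 ± 63.0 CPM (SD, n = 3), a change of -0.70 ± 0.09 on the log2 scale (adjusted p = 0.00269, edgeR's quasi-likelihood test). The call was kept in the 8 other fits of all 6 libraries and without any 1 library (adjusted p of 0.00168 to 0.0191 with 1 left out). Per kilobase of exon P4hb had the highest level of the 35 genes in both genotypes, at 493 CPM per kb in WT and 304 CPM per kb in CREBH-KO.

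The other isomerases did not pass. Pdia3 (ERp57, which serves glycoproteins held by calnexin and calreticulin) stood at 343 ± 40.0 CPM in WT and 345 ± 38.3 CPM in CREBH-KO. The log2 fold changes of Pdia4, Pdia5 and Pdia6 ran from -0.06 to 0.11, with adjusted p of 0.572 to 0.672. The ratio of P4hb to the summed CPM of these 4 isomerases was 1.60, 2.10 and 2.11 in WT and 1.08, 1.29 and 1.09 in CREBH-KO, with no overlap between the genotypes; the ratio was chosen after the values were seen and was not tested. The partners of the P4HB protein, looked up after its values were seen, did not pass: Mttp, the large subunit of the transfer protein, differed by 0.03 ± 0.09 on the log2 scale (adjusted p = 0.895 by edgeR), and the prolyl hydroxylase subunits P4ha1 by 0.66 ± 0.22 (adjusted p = 0.0936) and P4ha2 by -0.26 ± 0.20 (adjusted p = 0.461). Whether P4hb differed from these genes in its change was not tested. P4ha3, a further subunit gene that was looked up, was not among the tested genes.

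**Figure D2:**
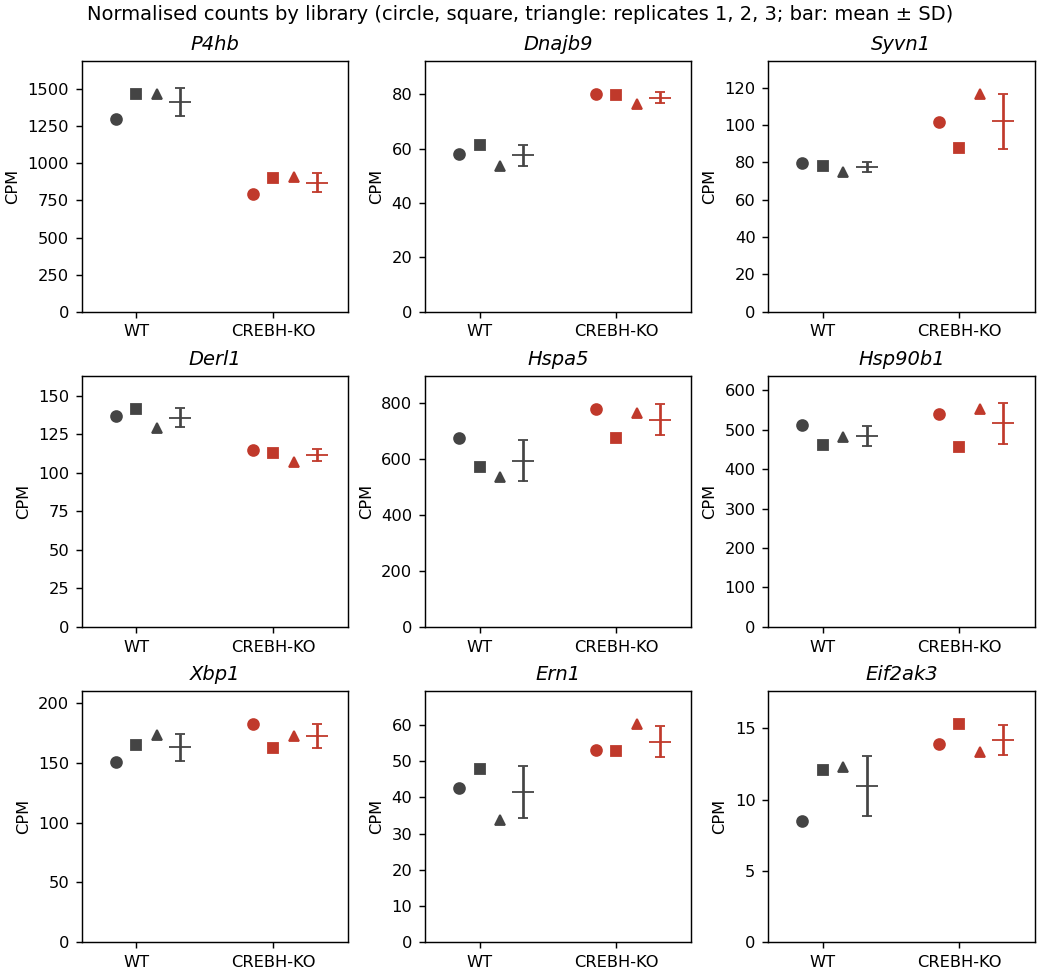
Normalised counts (CPM, y axis from 0) of 9 genes in each WT and CREBH-KO library, with circle, square and triangle for replicates 1, 2 and 3 and the mean ± SD beside them. P4hb and Derl1 have all 3 CREBH-KO points below the WT points and Dnajb9 and Syvn1 all 3 above them, while Hsp90b1 and Xbp1 overlap.

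Dnajb9 led the 10 chaperones and cofactors. It encodes ERdj4, a DnaJ cofactor of the HSP70 chaperone BiP that also restrains the sensor IRE1, and occupies 44205559 to 44210326 of chromosome 12 (minus strand, ENSMUSG00000014905). It was measured at 58.0, 61.2 and 53.5 CPM in WT 1, 2 and 3 and at 80.2, 79.7 and 76.3 CPM in CREBH-KO 1, 2 and 3, with no overlap. The mean rose from 57.6 ± 3.86 to 78.7 ± 2.09 CPM, by 0.45 ± 0.08 on the log2 scale (adjusted p = 0.00838 by edgeR), and the call was kept in the 8 other fits of all libraries and without any 1 library (adjusted p up to 0.0341). With CREBH-KO 1 alone against WT its log2 fold change was 0.45 and did not pass (adjusted p = 0.167).

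The windows of P4hb and Dnajb9, whose calls held with any 1 library left out, contained none of the 4 motifs. That of P4hb is shown beside that of Syvn1, a called gene with ERSE, from base 250 to base 1 before the RefSeq start, 5′ to 3′ on the gene's strand, with CCAAT and CCACG boxes of either strand in capitals. P4hb holds 1 box of each kind in the reverse of the ERSE order, and Syvn1 holds 2 CCAAT boxes, 1 of them inverted, and 1 CCACG box.
P4hb, chr11:120573254-120573503, minus strand: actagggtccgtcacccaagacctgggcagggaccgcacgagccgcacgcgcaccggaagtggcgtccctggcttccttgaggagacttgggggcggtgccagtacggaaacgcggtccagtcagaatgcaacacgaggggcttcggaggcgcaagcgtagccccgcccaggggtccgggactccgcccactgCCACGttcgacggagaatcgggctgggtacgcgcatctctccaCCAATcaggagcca
Syvn1, chr19:6046326-6046575, plus strand: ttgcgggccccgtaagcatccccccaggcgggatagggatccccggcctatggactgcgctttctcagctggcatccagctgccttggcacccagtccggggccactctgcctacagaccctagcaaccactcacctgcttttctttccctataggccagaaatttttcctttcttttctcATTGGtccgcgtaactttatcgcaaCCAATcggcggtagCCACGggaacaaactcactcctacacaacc

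The major chaperones did not pass. Hspa5, which encodes BiP, the ER member of the HSP70 family and the usual marker of ER stress, was measured at 676, 570 and 534 CPM in WT 1, 2 and 3 and at 779, 676 and 764 CPM in CREBH-KO 1, 2 and 3. The lowest CREBH-KO library exceeded the highest WT library by less than 1 CPM (676.2 against 675.9 CPM). The log2 fold change of 0.32 ± 0.11 did not pass in edgeR (adjusted p = 0.0995), although it did without WT 1 (0.41, adjusted p = 0.0282), in DESeq2 (adjusted p = 0.0486) and with scaling by library size alone (adjusted p = 0.0484). Hsp90b1, the ER member of the HSP90 family (GRP94), stood at 512, 462 and 481 CPM in WT and at 540, 456 and 553 CPM in CREBH-KO, and the genotypes overlapped. Its log2 fold change was 0.09 ± 0.10 (edgeR adjusted p = 0.598). Of its exonic bases 15.7% lie within other genes on either strand.

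Of the remaining cofactors, Hyou1 (a nucleotide exchange factor of BiP), Manf (a secreted stress-induced protein) and Creld2 had log2 fold changes of 0.16 to 0.27 with standard errors of 0.11 to 0.16, and Dnajc3 (p58IPK), Dnajb11, Dnajc10 and Sdf2l1 of -0.08 to 0.04. None of these 7 passed (adjusted p of 0.288 to 0.971), and the genotypes overlapped for each. The lectin chaperone genes Calr, at 728 ± 62.1 CPM in WT and 709.5 ± 83.3 CPM in CREBH-KO, and Canx, at 322 ± 19.7 and 342 ± 29.8 CPM, did not pass either (log2 fold changes of -0.04 and 0.09, edgeR adjusted p of 0.871 and 0.605). Neither lectin gene had an unadjusted p under 0.05 or a call in DESeq2 or limma-voom.

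None of the 3 genes of stress sensing (2 sensors and the transcription factor gene Xbp1) passed the test. The libraries of both of these sensors were higher in CREBH-KO with no overlap, where 30.6% of all tested genes had none. Atf6, the remaining sensor gene, is among the other pathway genes and overlapped, at 66.0 ± 2.81 CPM in WT and 63.2 ± 4.73 CPM in CREBH-KO. Its log2 fold change was -0.06 ± 0.08 (edgeR adjusted p = 0.689). Ern1, which encodes IRE1, the kinase and nuclease that splices Xbp1 mRNA, was measured at 42.6, 47.9 and 33.7 CPM in WT 1, 2 and 3 and at 53.2, 52.9 and 60.4 CPM in CREBH-KO 1, 2 and 3. Each CREBH-KO library was above each WT library. The log2 fold change of 0.42 ± 0.13 missed the threshold (edgeR adjusted p = 0.0678) and passed in 4 of the 8 alternative fits of all libraries, among them DESeq2 (adjusted p = 0.0314) and library size alone (0.0375), but in none of the 6 fits with 1 library left out (adjusted p of 0.0584 to 0.206). Eif2ak3, which encodes PERK, the kinase that slows translation, was at 8.51, 12.1 and 12.3 CPM in WT and at 13.9, 15.3 and 13.3 CPM in CREBH-KO, again without overlap. Its log2 fold change was 0.38 ± 0.15 (edgeR adjusted p = 0.166), and it was 0.21 without WT 1, the lowest library. Of its exonic bases 8.05% lie within an antisense gene.

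Xbp1, the transcription factor gene whose mRNA IRE1 splices, was at 151, 165 and 173 CPM in WT and at 183, 162 and 172.5 CPM in CREBH-KO, and the genotypes overlapped (0.08 ± 0.08 on the log2 scale, adjusted p = 0.596 by edgeR). Gene counts do not separate its spliced from its unspliced form. Of these 3 genes, 2 had an unadjusted p under 0.05 in edgeR (25.2% of all tested genes did), 1 was called in DESeq2 and 0 in limma-voom. The translocon genes Sec61a1 and Sec61b, which form the entry channel, had log2 fold changes of 0.03 and 0.00 with adjusted p of 0.868 and 0.996, and neither had an unadjusted p under 0.05 or a call in DESeq2 or limma-voom.

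Syvn1 was called higher and Derl1 lower, with no test of the difference between them, in the ERAD membrane complex. Syvn1 (ENSMUSG00000024807, plus strand of chromosome 19, 6046576 to 6053712) encodes HRD1, the ubiquitin ligase at its centre. It was measured at 79.9, 77.9 and 74.6 CPM in WT 1, 2 and 3 and at 101.5, 87.6 and 117 CPM in CREBH-KO 1, 2 and 3. The genotypes did not overlap, and the CREBH-KO libraries spread more widely (SD of 14.5 against 2.70 CPM). The log2 fold change was 0.40 ± 0.11 (adjusted p = 0.0451, edgeR's test). Its call was kept in the 8 other fits of all libraries and lost without any WT library and without CREBH-KO 1 or 3 (0.0650 to 0.146).

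Derl1 (ENSMUSG00000022365, minus strand of chromosome 15, 57869502 to 57892448) encodes derlin-1, a membrane protein of the route by which substrates leave the ER. It was at 137, 141.5 and 129 CPM in WT and at 115, 113 and 107 CPM in CREBH-KO, all 3 below the lowest WT library. The log2 fold change was -0.28 ± 0.07 (edgeR adjusted p = 0.0432). The call was lost without any 1 of the 6 libraries (adjusted p of 0.0606 to 0.166), with library size alone (0.128) and with upper-quartile factors (0.0691). Its relative Derl2 was at 85.6 ± 5.34 CPM in WT and 103 ± 7.37 CPM in CREBH-KO, without overlap (0.27 ± 0.09 on the log2 scale, adjusted p = 0.0829 by edgeR), and passed only with library size alone (0.0351) among the 15 alternatives. The ratio of Derl2 to Derl1 was 0.652, 0.623 and 0.614 in WT and 0.927, 0.838 and 1.01 in CREBH-KO. This ratio was chosen after the values were seen and was not tested. It could not overlap between genotypes, because neither gene did and they differed in opposite directions. Derl3, the derlin of secretory cells, was the least abundant of the 35 genes, at 1.06 to 1.56 CPM over the 6 libraries.

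The remaining ERAD genes did not pass. Sel1l, the scaffold of HRD1, was at 142 ± 2.65 CPM in WT and 133 ± 11.3 CPM in CREBH-KO. Vcp, which encodes p97, the conjugating enzyme gene Ube2j1 and Ufm1, a ubiquitin-like modifier, had log2 fold changes of -0.02 to 0.11 (adjusted p of 0.439 to 0.918), and of these Ube2j1 did not overlap between genotypes. Among the glycan readers, which select misfolded glycoproteins, Edem2 was at 51.2 ± 1.36 CPM in WT and 42.8 ± 2.31 CPM in CREBH-KO without overlap (-0.26 ± 0.08 on the log2 scale, adjusted p = 0.0685 by edgeR). Edem1 (-0.16), Edem3 (0.12) and Os9 (-0.05) had adjusted p of 0.246 to 0.804, and the genotypes overlapped for Os9 alone. Of these 4 readers, 1 had an unadjusted p under 0.05 (25.2% of all tested genes did), and 0 were called in DESeq2 or limma-voom.

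Herpud1, a small membrane protein that recruits ERAD components and holds ERSE-II in its promoter, varied most between replicates. It was measured at 279, 493 and 559 CPM in WT 1, 2 and 3 and at 254, 257.5 and 465 CPM in CREBH-KO 1, 2 and 3. WT 1 lay with CREBH-KO 1 and 2, and CREBH-KO 3 lay with WT 2 and 3. The coefficient of variation within a genotype, averaged over both, was 35.02%, against a median of 7.74% for the 35 genes and 7.88% for all genes at 10 CPM or more. Its log2 fold change of -0.45 ± 0.29 did not pass (edgeR adjusted p = 0.370), and passed when no low genes were filtered out (0.0225). Without 1 library it ran from -0.25 (without WT 3) to -0.80 (without CREBH-KO 3), with -0.70 without WT 1, -0.30 without CREBH-KO 1 and -0.30 without CREBH-KO 2. Sdf2l1 (23.3%), Manf (18.2%) and Creld2 (14.9%) followed in spread, and Ube2j1 was steadiest at 3.33%.

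**Figure D3:**
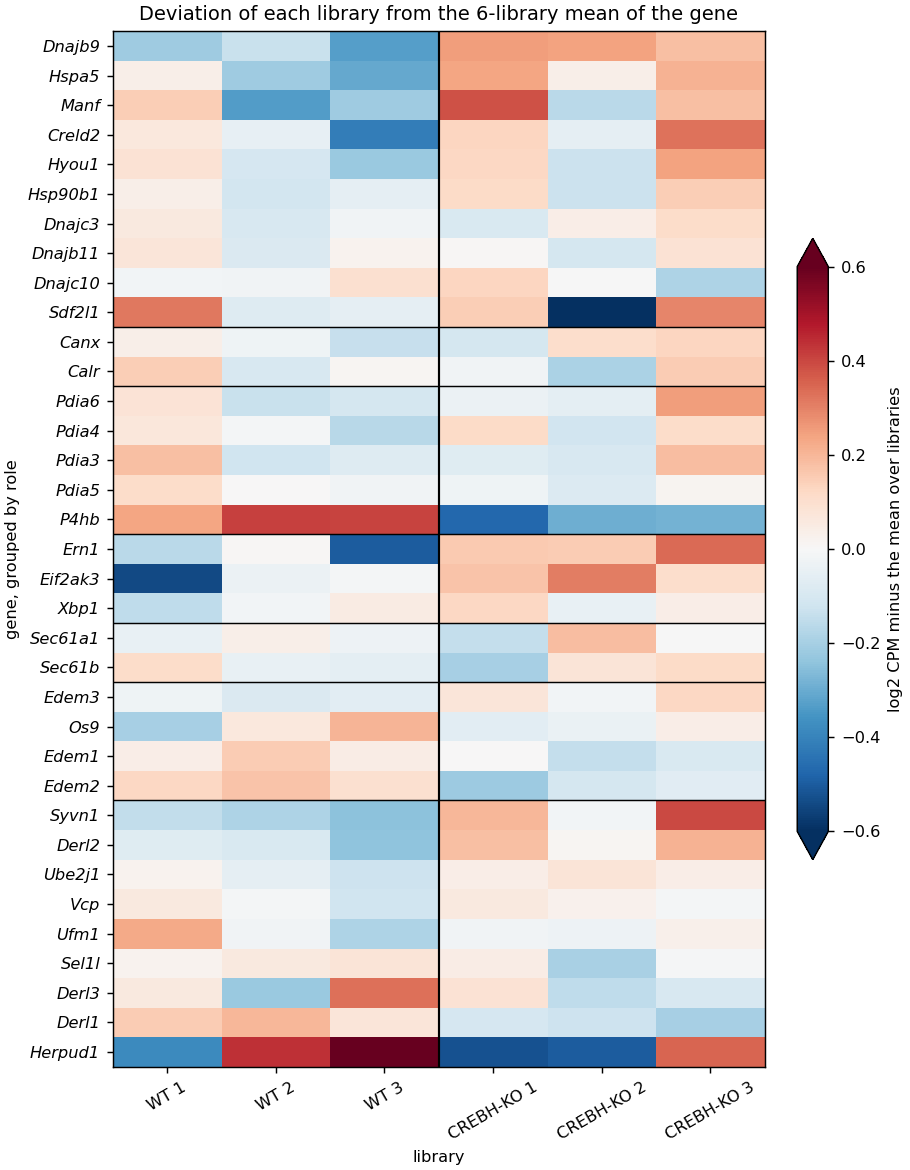
Log2 CPM of each gene (rows, grouped by role) in each library (columns), as the difference from the gene's mean over the 6 libraries. Most chaperone and isomerase rows are highest within WT in WT 1 and within CREBH-KO in CREBH-KO 3, and Herpud1 runs against its genotype in WT 1 and CREBH-KO 3.

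Within a genotype many folding genes were highest or lowest in the same library. This order was not among the planned comparisons and was not tested, and genes of the same library are not independent observations. Of the 17 chaperone, lectin and isomerase genes, 14 were highest in WT 1 among the WT libraries and 12 were highest in CREBH-KO 3 among the CREBH-KO libraries, where 12 were lowest in CREBH-KO 2. Over all tested genes these shares were 37.0%, 31.4% and 34.7%, against 82.4%, 70.6% and 70.6% of the 17. The median log2 deviation of the 10 chaperones and cofactors from their 6-library means was 0.06 in WT 1, -0.10 in WT 2 and -0.13 in WT 3, and 0.13, -0.08 and 0.18 in CREBH-KO 1, 2 and 3. By this measure WT 1 lay above CREBH-KO 2. Of the 18 sensor, translocon and ERAD genes, 7 were highest in WT 1 and 9 in CREBH-KO 3, and the difference between these sets was not tested. These genes share the library, its depth and its scaling factor.

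Of the 94 other genes of the pathway, put in 7 lists, all were tested, 3 rose and 2 fell (5.32% against 10.4% of all genes). Prdx4, an ER peroxidase that passes oxidising power to the isomerases, was at 47.1 ± 4.83 CPM in WT and rose to 67.6 ± 2.70 CPM in CREBH-KO, by 0.52 ± 0.09 on the log2 scale (adjusted p = 0.00838 by edgeR). Spcs2, a subunit of the signal peptidase, rose by 0.36 ± 0.07 on the log2 scale (edgeR adjusted p = 0.0174). Ddit3, which encodes the stress factor CHOP, rose by 0.71 ± 0.18 (edgeR adjusted p = 0.0359). Of the exonic bases of Ddit3, 10.9% lie within other gene models, among them another model of Ddit3 that was not used. Tmbim6, an ER membrane protein that restrains cell death, fell by 0.33 ± 0.09 (adjusted p = 0.0422) and Cnpy3, a cofactor of Hsp90b1, by 0.34 ± 0.09 (adjusted p = 0.0420). The call of Prdx4 was lost without WT 2 (adjusted p = 0.0511), and no gene of the 94 was called without that library. Those of the other 4 were lost in at least 4 of the 6 fits with 1 library left out, and those of Tmbim6 and Cnpy3 also with library size alone and with upper-quartile factors.

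By list, 1 of 11 signalling genes rose and 1 fell, 1 of 15 entry genes rose, 1 of 18 oxidative folding genes rose and 1 of 8 chaperone cofactors fell. None of the 12 genes of N-glycan transfer and trimming, the 23 other ERAD genes or the 7 other genes of UFMylation was called by edgeR. At an unadjusted p under 0.05 there were 4 (33.3%), 5 (21.7%) and 2 (28.6%) of them, beside 25.2% of all tested genes, DESeq2 called 0, 1 and 0, and limma-voom 0, 0 and 0. In the lists with calls, 6 signalling genes (54.5%) and 5 entry genes (33.3%) had an unadjusted p under 0.05 in edgeR. So did 3 oxidative folding genes (16.7%) and 2 chaperone cofactors (25%). Of the signalling genes 5 did not overlap, 2 higher and 3 lower (45.5%, against 30.6% of all tested genes). The median log2 fold changes of the 7 lists ran from -0.05 to 0.10.

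Genes with and without ERSE in the promoter overlapped in their changes. The 9 genes with ERSE had a median log2 fold change of 0.09 (range -0.12 to 0.40), with Syvn1 the only one called. The 22 genes with a window and no ERSE had a median of 0.00 (-0.70 to 0.45), with Dnajb9 and P4hb called. The 10 other tested genes with ERSE in a promoter window had a median of 0.15, with 1 called higher, and all 10737 tested genes with a window one of 0.01. These medians are a description, and the differences between them were not tested.

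**Figure D4:**
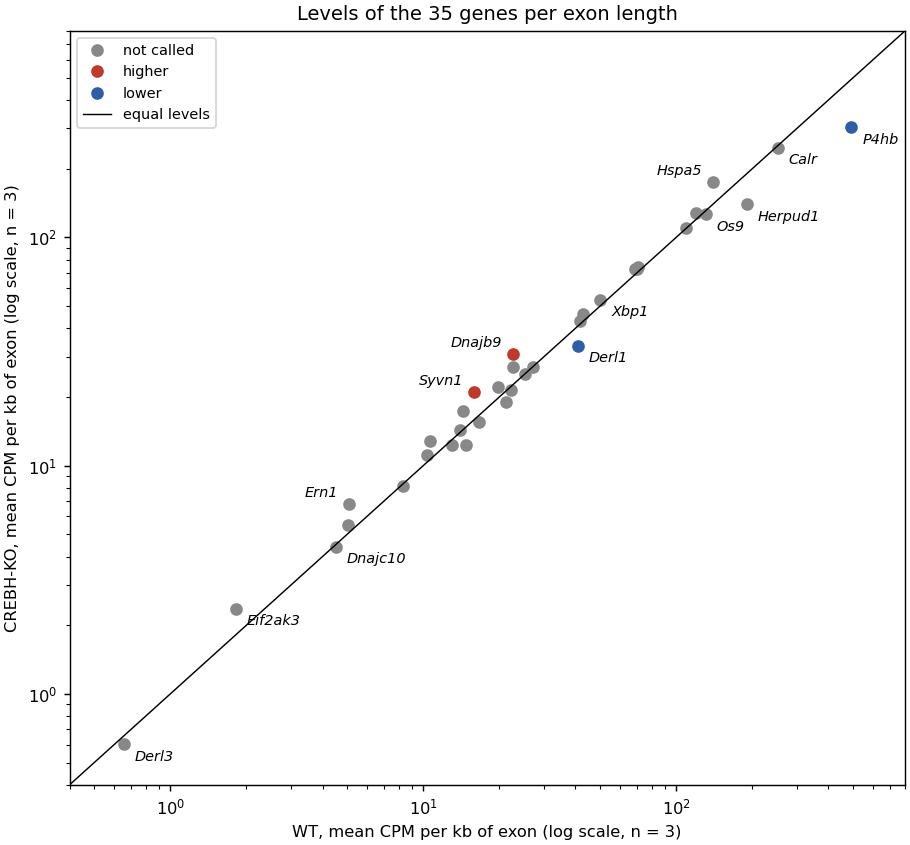
Mean level per kilobase of exon in WT (x axis) and CREBH-KO (y axis), both on log scales, for the 35 genes, with the line of equal levels. P4hb lies below the line at the top of the range (493 and 304 CPM per kb), and the order of the other genes is nearly the same in both genotypes.

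By level per kilobase of exon, P4hb was followed in WT by Calr (253 CPM per kb), Herpud1 (190.2), Hspa5 (140.3) and Os9 (131). In CREBH-KO the order was P4hb (304), Calr (246), Hspa5 (175), Herpud1 (139.5) and Hsp90b1 (128). The exchange of Herpud1 and Hspa5 lies within the replicate spread of Herpud1. The sensors ranked low, with Ern1 at 5.07 and 6.79 and Eif2ak3 at 1.82 and 2.35 CPM per kb in WT and CREBH-KO, against 50.2 and 53.1 for Xbp1. Together the 35 genes took 0.661% to 0.740% of the counts of a library.

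Hepatocyte markers (5 of 5 detected) were abundant in every library and summed to 61650 to 73500 CPM in WT and 68370 to 75980 CPM in CREBH-KO. Of these Apob was called lower (4957 ± 313 CPM in WT and 3854 ± 61.0 CPM in CREBH-KO, edgeR adjusted p = 0.0419), and Alb, Ttr, Trf and Serpina3k were not called, with log2 fold changes of 0.15 to 0.21. Summed markers of pancreatic acinar cells stayed at 0.135 to 0.517 CPM and those of B and plasma cells, which are rich in these chaperones, at 3.36 to 6.83 CPM, with Tnfrsf17 at 0 in all 6. Neither summed level separated the genotypes. Jchain, of the B and plasma cells, was higher in CREBH-KO without overlap, where 30.6% of all tested genes had none. It was at 2.30, 2.60 and 2.99 CPM in WT 1, 2 and 3 and 4.27, 3.99 and 3.37 CPM in CREBH-KO 1, 2 and 3. Its log2 fold change of 0.56 was not called (edgeR adjusted p = 0.122). Cd79a (0.53), Ms4a1 (0.46) and Cd79b (-0.18) were not called and overlapped, and Mzb1 and Tnfrsf17 were not tested. Stellate cell markers (5 of 5 detected) summed to 126.5 to 157 CPM in WT and 174 to 199 CPM in CREBH-KO. Of these Dcn, the largest part of each sum, was called higher (84.8 CPM in WT and 125 CPM in CREBH-KO, log2 fold change of 0.56). Reln (0.08), Lrat (-0.08), Col1a1 (0.58) and Col3a1 (0.64) were not called. Cholangiocyte markers (5 of 5 detected) summed to 35.8 to 78.9 CPM in WT and 41.7 to 69.3 CPM in CREBH-KO. Of these Sox9 was called higher (log2 fold change of 0.96), while Epcam (-1.11), Krt19 (-0.35), Spp1 (-0.09) and Krt7 (0.04) were not called. The part of these cells in the changes above was not tested.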

How the data were processed

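The authors deposited 1 table of raw read counts per gene for each of 6 libraries, made with HTSeq, per the labels. The sources used here do not give the aligner, genome build, HTSeq version or strand setting, so reads of overlapping antisense genes cannot be told apart. Each of the 55536 identifiers matched GENCODE M21 (GRCm38), which supplied symbols, positions and exon lengths. Reads given to no gene (27.4% to 31.2% of listed reads) were left out of library sizes. No pair of replicates matched within sampling noise (chi-square over its degrees of freedom was 18.8 or more).

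The fit used edgeR 4.0.16 in R 4.3.3: filterByExpr (minimum count 10, minimum total 15; 15589 genes kept), TMM factors (0.967 to 1.05), and the quasi-likelihood test of CREBH-KO against WT with no covariate, two-sided, with Benjamini-Hochberg adjustment over all tested genes. The SE was derived from the log2 fold change and its F statistic (their ratio, after taking the root of F). CPM use effective library sizes. Replicate numbers follow the order of deposit and only name the samples. DESeq2 1.42.0, limma-voom (limma 3.58.1), other scalings and filters, and libraries left out were tried as alternatives. The test was checked on simulated data. Promoter windows are RefSeq's, GRCm38.p6. Protein sequences were not used here.

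The 35 genes and the lists were chosen with earlier results of these data known. Values are given in full for genes called by that test or in at least 2 fits of all libraries, and for Hspa5, Hsp90b1, Xbp1, Ern1 and Eif2ak3; the rest are given by role. Of the other pathway genes, those called are named (at most 3 per list and direction), and so is the sensor gene Atf6.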

Additional observations from a re-analysis of the deposited data

How the results depend on the processing

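Among the 8 alternative fits of all 6 libraries, 4 to 6 of the 35 genes were called. The number called higher was 5 with library size alone and 4 in DESeq2. The number called lower was 1 with library size alone and 1 with upper-quartile factors. Of the calls over all genes, 52.8% were higher with library size alone, 45.7% with upper-quartile factors, 38.3% in DESeq2 and 37.7% with the design described. With 1 library left out, 2 to 3 of the 35 were called, 1 to 2 higher and 1 lower in each, and 0 to 9 of the 94 other pathway genes (9 without WT 1). Over all genes the count of 1616 was 2456 with no filter on low counts and 2123 in DESeq2, and with 1 library left out it ranged from 658 (without WT 2) to 1806 (without WT 1). It was 838 without CREBH-KO 2 and 778 without CREBH-KO 3. With CREBH-KO 1 alone against WT, where the lone library is assumed to vary like WT, 1 of the 35 was called (0 higher, 1 lower), 0 of the 94 and 228 of all genes. The median of the 35 genes ranged from -0.01 to 0.12 over all alternatives. With library size alone it was 0.12 beside 0.10 for all genes.

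Of the 524 alternative values of the 35 genes, 43 had the other sign, all of genes that passed neither with the design described nor under the alternative. With library size alone they were Dnajb11 (0.066), Dnajc10 (0.039), Calr (0.035), Pdia5 (0.012), Os9 (0.023) and Ufm1 (0.049), and with upper-quartile factors Dnajb11 (0.029), Dnajc10 (0.0013) and Ufm1 (0.012). With no filter they were Pdia3 (-0.012) and Sec61b (-0.020). Sec61b turned with DESeq2 size factors (-0.0065), in DESeq2 (-0.0066) and in limma-voom (-0.0087). With 1 library left out, the values of the 12 genes that turned ranged from -0.054 to 0.043 for Dnajb11, -0.0067 to 0.093 for Dnajc3, -0.11 to 0.044 for Dnajc10, -0.26 to 0.15 for Sdf2l1, -0.13 to 0.043 for Calr, -0.087 to 0.097 for Pdia3, -0.060 to 0.11 for Sec61a1, -0.059 to 0.094 for Sec61b, -0.17 to 0.039 for Os9, -0.25 to 0.020 for Derl3, -0.0013 to 0.079 for Vcp and -0.12 to 0.084 for Ufm1. With CREBH-KO 1 alone they were Dnajc3 (-0.096), Dnajc10 (0.087), Sdf2l1 (0.050), Canx (-0.089), Pdia3 (-0.096), Pdia6 (-0.010), Sec61a1 (-0.15) and Sec61b (-0.23). The cause was not tested. No paired analysis was possible because the labels give no replicate numbers shared between genotypes. Derl3, at about 1 CPM, is the gene most limited by depth.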
